A study of Bos taurus with 5 samples.

Results

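The skin-labelled and the lung-labelled library of a cattle (Bos taurus) RNA sequencing study were compared gene by gene. A gene was taken as a member of the comparison where the higher of its 2 values was at least 50 FPKM (fragments per kilobase of transcript, scaled to the mapped total) and the higher value plus 1 was at least 4 times the lower value plus 1. By that rule 1049 of 27607 genes differed, or 3.8% of the table. Of these, 516 were higher in the skin-labelled library and 533 were higher in the lung-labelled library. The rule used the difference itself, so the number of members is a description and no test was made of it.

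The study holds 5 libraries, 1 for each of the labels brain, skin, lung, heart and limb. Per the labels' protocols, cells were lysed and the RNA was pre-amplified on a microfluidic device designed to take single cells. The sources used here do not state how many cells or animals each library stands for, nor their age, sex or breed, and no treatment or genetic change is named for any library. With 1 library per label there were 0 replicates, so no error, standard deviation or p-value can be attached to any value, and every difference describes these libraries and not the tissues. The brain-, heart- and limb-labelled libraries were not used to choose the members and are given beside them.

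Skin is an epidermis of keratin-filled keratinocytes over a dermis of fibroblasts and collagen, with hair follicles and pigment cells. Lung is lined by flat and surfactant-secreting alveolar cells and by ciliated and secretory airway cells, in close contact with capillary endothelium and macrophages. Cells of either tissue, and cells grown from them, share large programmes such as division, protein synthesis, mitochondrial respiration and secretion, whose genes can differ between samples whatever the tissue.

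Markers of the labelled tissues were few. Of 16 keratinocyte markers, 3 were above 0 in the skin-labelled and 4 in the lung-labelled library. The basal keratin gene KRT5 was listed at 0 in the skin-labelled library and at 51.0 FPKM in the lung-labelled library. KRT6A, a keratin of stressed or injured epithelium, was at 237 and 422 FPKM in that order, and KRT10, a keratin of differentiating epidermis, was at 20.8 and 7.43 FPKM. Of 22 alveolar and airway markers, 4 were above 0 in the skin-labelled and 3 in the lung-labelled library, and EMP2, a membrane protein of flat alveolar cells and other epithelia, was the 1 member among them, at 76.5 FPKM under the skin label and listed at 0 under the lung label. The surfactant carrier ABCA3 was at 7.62 FPKM and a listed 0 in that order. The alveolar and airway markers summed to 236 FPKM under the skin label and 165 FPKM under the lung label. All of the lung-labelled sum came from markers that are not named here. The haemoglobin gene HBA, at 59.5 FPKM, and the myelin gene PMP22, at 105 FPKM, were members under the lung label and listed at 0 under the skin label. PMP22 was also at 38.5 FPKM under the heart label and 19.7 under the limb label. Of 8 Schwann cell and neural crest markers, 1 was above 0 under each of the skin and lung labels. Under the skin label it was another gene than PMP22, at 30.8 FPKM. Markers of fibroblasts and mesenchyme were above 0 for 14 of 22 genes under the skin label and 12 of 22 under the lung label, with summed levels of 7904 and 3688 FPKM. Vimentin (VIM) alone stood at 2251 and 1011 FPKM. All 24 leukocyte markers and all 25 striated muscle markers were listed at 0 in both libraries, and 0 and 1 of 12 endothelial markers were above 0. The labels are therefore used below only as names of the libraries. Where a gene of a cell type differs in level, fewer cells of that type and less RNA per cell cannot be told apart, and the part of cell makeup in any difference was not tested.

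The libraries were close in scale. Their values summed to 1166887 FPKM under the skin label and 1172798 FPKM under the lung label, and over the 2970 genes at 50 FPKM or more in at least 1 of them the median log2 difference (skin minus lung, after adding 1 to each) was -0.0057. Genes at 1 FPKM or more numbered 4868 under the skin label and 5707 under the lung label. Read totals cannot be taken from such values, so depth is unknown, and neither intervals nor detection limits are given.

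Against those 2970 genes that could have passed, 17.4% were higher in the skin-labelled library, 17.9% were higher in the lung-labelled library and 35.3% differed in either direction. The same rule applied to the other pairs of labels gave 33.4% for brain and skin, 30.3% for brain and lung, 19.6% for brain and heart, 26.6% for brain and limb and 34.5% for skin and heart. It gave 39.0% for skin and limb, 32.9% for lung and heart, 37.2% for lung and limb and 25.9% for heart and limb. These pairs share libraries and are not independent of each other. Among the 10 pairs, skin and limb and lung and limb had higher shares than skin and lung.

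**Figure D1:**
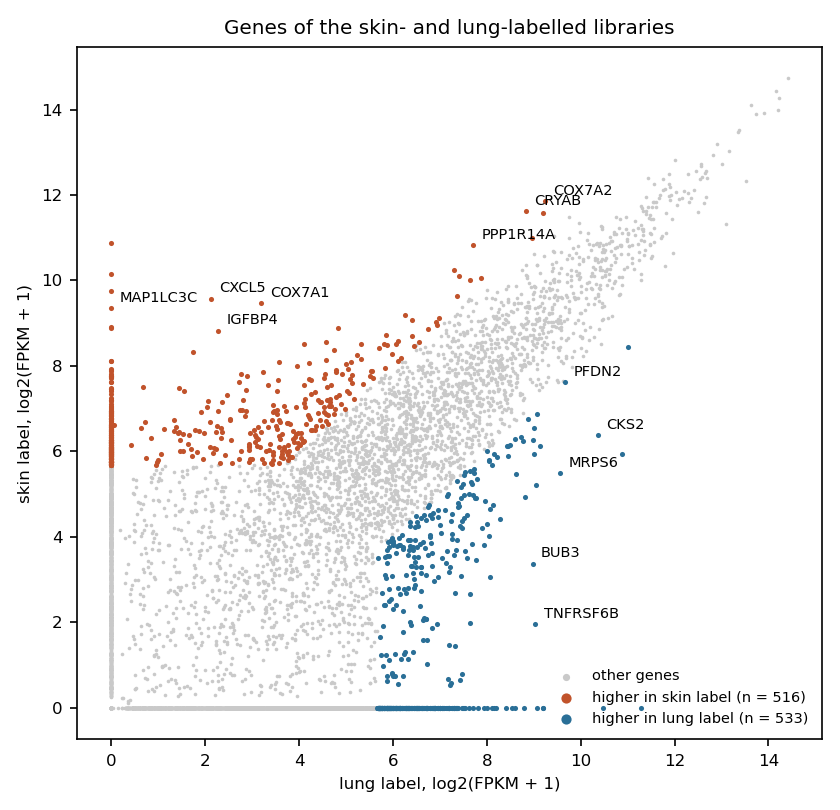
Each point is a gene at log2(FPKM + 1) in the lung-labelled (horizontal) and skin-labelled library (vertical), with the 516 genes higher in the skin label in orange and the 533 higher in the lung label in blue. Most abundant genes lie near the diagonal, and the coloured points along the axes are members listed at 0 in the other library.

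Many differences were between a modest value and a value of 0. Of the members higher in the skin-labelled library, 265 (51.4%) were listed at 0 in the lung-labelled library, and of those higher in the lung-labelled library, 313 (58.7%) were listed at 0 in the skin-labelled library. The median level in the higher library was 86.6 FPKM on both sides, and 309 skin-side members and 318 lung-side members lay under 100 FPKM. Among members above 0 in both libraries, the median log2 difference was 2.95 for the 251 skin-side members and 3.07 for the 220 lung-side members. Genes that dividing and resting cells alike are thought to need were also listed at 0, among them the RNA polymerase II subunit POLR2C and the histidyl-tRNA synthetase HARS1 under the skin label and the mitochondrial ribosomal protein MRPL3 under the lung label. A value of 0 is therefore reported only as listed, and no ratio is given against it.

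The share of genes past the rule was lower in each higher class of level. Between 50 and 100 FPKM, 627 of 1160 genes (54.1%) were members, between 100 and 200 FPKM 275 of 731 (37.6%), and between 200 and 500 FPKM 109 of 542 (20.1%). From 500 to 1000 FPKM 22 of 242 genes (9.09%) were members, and at 1000 FPKM or more 16 of 295 (5.42%), 11 of them higher under the skin label and 5 under the lung label. Members held 7.17% of the summed FPKM of the skin-labelled library and 6.22% of that of the lung-labelled library, each counted on its own side.

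**Figure D2:**
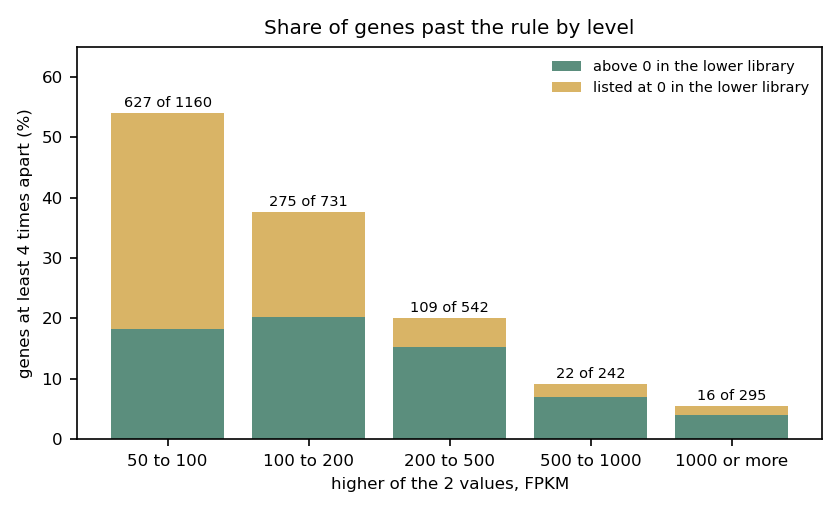
Bars give the percentage of genes at least 4 times apart (vertical axis) in 5 classes of the higher of the 2 values in FPKM (horizontal axis), split into members above 0 and members listed at 0 in the lower library. The share runs from 54.1% in the lowest class to 5.42% in the highest.

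At the edge of the rule lay genes whose ratio after adding 1 was close to 4. The nearest inside on the skin side were S100A13 at 126 against 30.8 FPKM, the polyamine acetyltransferase SAT1 at 378 against 93.2 and the collagen cross-linking enzyme LOX at 276 against 67.7. The nearest outside were MATR3 at 281 against 70.0 FPKM, CCDC115 and NAA60. On the lung side the nucleoside transporter SLC29A1 (21.5 under the skin and 89.4 FPKM under the lung label), ARL14EP and ID1 were just inside, and GTPBP4 (27.1 and 111), RPF2 and ISCA1 were just outside.

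The most abundant members on the skin side belonged to respiration, stress protection and contractile filaments. COX7A2, the widely expressed form of a cytochrome c oxidase subunit, stood at 3733 FPKM in the skin-labelled library and 602 in the lung-labelled library, and the brain-, heart- and limb-labelled libraries stood at 1968, 1920 and 1542. All 4 other libraries were below the skin label and the lung label was the lowest, with a ratio of 6.19 after adding 1. Its heart and muscle counterpart COX7A1 was at 710 FPKM under the skin label and 8.19 under the lung label, against 115, 59.3 and 525 under the brain, heart and limb labels. Here too the lung label was the lowest, and the ratio was 77.4. CRYAB, a small heat shock protein of the lens and muscle, was at 3143 and 455 FPKM, with 653, 513 and 809 in the other 3. In CRYAB the skin label alone was high, and the lung label lay close to the rest.

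Smooth muscle actin, ACTA2, was at 3067 FPKM under the skin label, 589 under the lung label and 4650, 8209 and 9827 under the brain, heart and limb labels. The skin label was thus lower than all 3 of these, and the lung label was the lowest of the 5. PPP1R14A, an inhibitor of myosin phosphatase in smooth muscle, was at 1812 and 209 FPKM, with 26.2, 873 and 123 under brain, heart and limb. Its order was another, since the brain and limb labels were lower than the lung label. Of 11 smooth muscle and pericyte markers, 5 were above 0 in each of the skin- and lung-labelled libraries. Their summed levels were 4562 and 1526 FPKM, of which ACTA2 made up 3067 and 589. ACTA2 was the 1 member among these markers, and the other 4 did not pass the rule. The part of these markers in the differences was not tested.

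Protease and secretion genes were also among the abundant skin-side members. The table holds 2 entries named CSTB (cystatin B, an inhibitor of lysosomal cathepsins), at 2054 against 501 FPKM and 1032 against 200 FPKM, and reads may be shared between them. PRSS23, a secreted serine protease, was at 1093 and 168 FPKM and between 1217 and 1412 in the other 3, which left the lung label as the lowest of the 5. BLOC1S1, a subunit of a complex that sorts cargo to lysosome-related organelles, was at 1218 and 157 FPKM. CXCL5, a chemokine that draws neutrophils, was at 763 FPKM under the skin label, 3.36 under the lung label and 11.7, 167 and 449 under brain, heart and limb. IGFBP4, which binds insulin-like growth factors, was at 453 and 3.86 FPKM, with 51.1, 169 and 397 in the others. For both genes the lung label was the lowest, with ratios of 175 and 93.5. MAP1LC3C, an autophagosome protein, was at 650 FPKM under the skin label, listed at 0 under the lung label and above 0 in the other 3 (47.1 to 435 FPKM).

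On the lung side the most abundant named gene that is not a small RNA was CKS2, a partner of cyclin-dependent kinases. It was at 1318 FPKM under the lung label, 82.0 under the skin label, 39.2 under brain and 321 under heart, and it was listed at 0 under limb. The lung label stood alone above the rest, and its ratio to the skin label was 15.9. PFDN2, a prefoldin subunit that hands unfolded actin and tubulin to a chaperonin, was at 813 FPKM under the lung label and 197 under the skin label, with 322 to 411 in the other 3. MRPS6, a mitochondrial ribosomal protein, was at 759 and 43.8 FPKM, with 199 to 329 in the others, and BUB3, a spindle checkpoint protein, at 503 and 9.34 FPKM with 99.7 to 134 in the others. In MRPS6 and BUB3 the lung label was highest and the skin label lowest of all 5. TNFRSF6B, a decoy receptor for death ligands, was at 522 FPKM under the lung label, 2.89 under the skin label and 1125, 990 and 409 under brain, heart and limb. Only the skin label was low there.

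The brain-, heart- and limb-labelled libraries took every position relative to the pair. On a log scale, each of their values was placed nearer to the higher or to the lower of the 2 values. Of the skin-side members, 140 (27.1%) had all 3 on the side of the skin label and 119 (23.1%) had all 3 on the side of the lung label. Of the lung-side members, 152 (28.5%) had all 3 on the side of the lung label and 120 (22.5%) had all 3 on the side of the skin label. The limb-labelled library was on the higher side least often, for 45.2% of skin-side and 46.3% of lung-side members, against 55.8% and 60.04% for the brain label and 54.3% and 54.8% for the heart label.

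**Figure D3:**
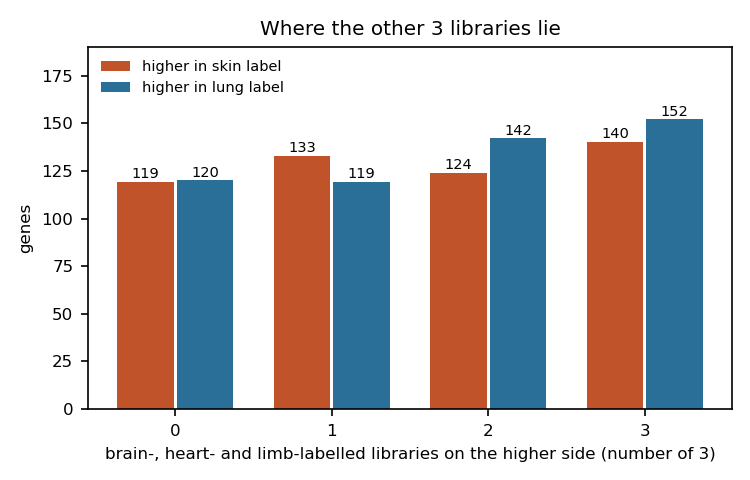
Bars count the genes (vertical axis) by how many of the brain-, heart- and limb-labelled libraries lie nearer to the higher value on a log scale (horizontal axis, 0 to 3), for members higher in the skin label (orange) and in the lung label (blue). All 4 classes are filled in both directions, with 119 to 152 genes each.

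A stricter reading separates members by which library stood apart. For 132 skin-side members (25.6%) the skin label was at least 4 times all other 4 libraries, and for 129 lung-side members (24.2%) the lung label was. In 44 skin-side members (8.53%) the lung label alone was low, every other library being past the rule against it. In 63 lung-side members (11.8%) the skin label alone was low. Listed at 0 in all other 4 were 48 skin-side and 46 lung-side members. The genes with the lung label alone low included COX7A1, ACTA2, PRSS23, IGFBP4 and HSPA5, and those with the skin label alone low included MRPS6, BUB3, TNFRSF6B, PSPH, DERL2 and the ubiquitin-conjugating enzyme UBE2B. UBE2B was listed at 0 under the skin label and lay between 185 and 296 FPKM in each of the 4 others.

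Named members were sorted into 45 functional lists, which took in 256 of the 469 named skin-side members and 293 of the 495 named lung-side members that are not small RNAs. Their shares are set beside 17.4% and 17.9%, but lists differ in level, and the share of genes past the rule falls with level, so nothing particular to a list is read from its count. Where a complex or pathway is described, some genes were added to the named ones after their values were seen.

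**Figure D4:**
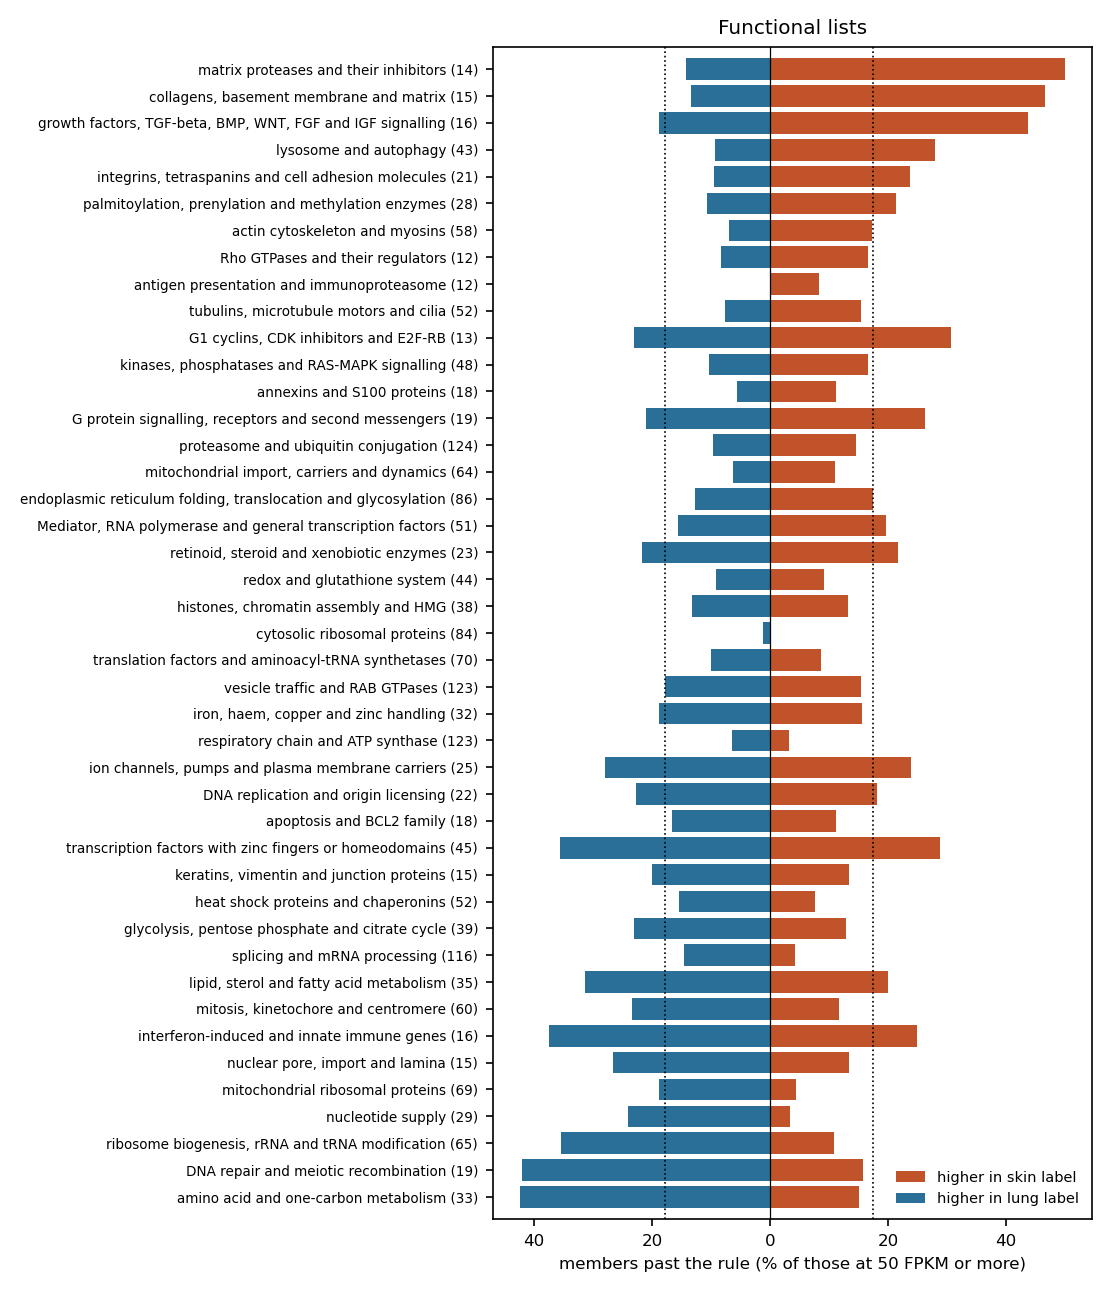
For each functional list with at least 12 genes at 50 FPKM or more in either library (number in brackets), bars give the percentage past the rule in each direction, to the right for higher in the skin label and to the left for higher in the lung label. Dotted lines mark 17.4% and 17.9%, the shares over all genes that could pass. Matrix lists stand at the top and amino acid and DNA repair lists at the bottom.

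Genes of the cell cycle were described in 3 lists, covering DNA replication, nucleotide supply and mitosis. Of their 111 genes that could pass, 26 (23.4%) were higher under the lung label and 12 (10.8%) under the skin label. For 15 of the 26 (57.7%) and 7 of the 12 (58.3%), the brain-, heart- and limb-labelled libraries were all on the lower side. Over all members those shares were 22.5% on the lung side and 23.1% on the skin side. The counts are small, and nothing particular to these lists is read from them. Members from both directions belonged to the same steps of the cycle, as follows.

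In DNA replication, 4 of 22 genes were higher under the skin label and 5 under the lung label, with a median log2 difference of 0.02. On the lung side stood GINS2 (105 FPKM), MCM7 (86.6 FPKM) and MCM6 (56.3 FPKM), parts of the replicative helicase, PRIM2 (51.7 FPKM) of the primase, and GMNN (263 FPKM), which blocks a further round of origin licensing. The skin-labelled values were 0 for GINS2, MCM7 and PRIM2, 4.32 for MCM6 and 54.7 FPKM for GMNN. CDC45, which joins GINS and the MCM ring in the active helicase, went the other way, at 79.6 FPKM under the skin label and listed at 0 in all other 4 libraries. RNASEH2A, which removes ribonucleotides from DNA, was at 147 and 5.96 FPKM and listed at 0 in the other 3, and RPA1, a single-strand binding protein, was at 83.0 FPKM against a listed 0. Helicase subunits were thus divided between the libraries.

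In nucleotide supply, 7 of 29 genes were higher under the lung label, 1 was higher under the skin label and 21 did not pass the rule (median log2 difference -0.46). DTYMK, which makes thymidine diphosphate, was at 338 FPKM and listed at 0 under the skin label, with 129, 76.3 and a listed 0 in brain, heart and limb. IMPDH2, the first enzyme committed to guanine nucleotides, was at 286 FPKM against a listed 0. PPAT, which opens purine synthesis, was at 176 against 0.72 FPKM, and RRM2, the S-phase subunit of ribonucleotide reductase, was at 148 against 0.45 FPKM and listed at 0 in the other 3. TK1 (thymidine kinase) was at 111 and 13.5 FPKM. The skin-side exception was GMPS, which follows IMPDH2 in the same pathway, at 231 against 8.46 FPKM, so 2 successive enzymes lay in opposite directions.

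In the mitosis list 14 of 60 genes were higher under the lung label and 7 under the skin label, with a median log2 difference of -0.44. Lung-side members included the checkpoint proteins BUB3 and MAD2L1 (81.1 FPKM against a listed 0), the outer kinetochore protein NDC80 (57.2 FPKM against a listed 0), and CDKN3, a phosphatase of cyclin-dependent kinases (95.6 FPKM against a listed 0). MIS18A and OIP5, partners in loading the centromeric histone, were at 103 FPKM each under the lung label and listed at 0 in the 4 other libraries. Skin-side members included CCNA2 (cyclin A2) at 70.7 FPKM and PLK4, the kinase that starts centriole duplication, at 55.2 FPKM, both listed at 0 under the lung label. Inner kinetochore genes lay on both sides. CENPW was at 385 and 67.7 FPKM and CENPT at 78.6 and 0.79 FPKM in favour of the skin label, whereas CENPX (68.3 and 343 FPKM), CENPK (25 and 106 FPKM) and CENPP (a listed 0 and 66.4 FPKM) favoured the lung label. CENPW, CENPT and CENPX are parts of the same histone-fold complex, and CENPW was also listed at 0 or near it in the other 3 libraries (at most 2.19 FPKM).

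Of 13 genes for G1 cyclins, inhibitors of cyclin-dependent kinases and the E2F-RB group, 4 were higher under the skin label and 3 under the lung label. CDKN1A, the p21 inhibitor, was at 123 FPKM under the lung label and 23.8 under the skin label, with 0.59 to 18.4 in the other 3, and CCNE2 (cyclin E2) was at 99.3 and 2.01 FPKM. On the skin side BTG2, an antiproliferative gene, was at 132 FPKM and CDKN2D, the p19 inhibitor, at 73.8 FPKM, both listed at 0 in all 4 other libraries.

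DNA repair and meiotic recombination had 8 of 19 genes (42.1%) higher under the lung label and 3 under the skin label, with a median log2 difference of -0.65. MND1 was at 159 FPKM and PSMC3IP at 98.0 FPKM under the lung label, both listed at 0 under the skin label and at most 1.87 FPKM elsewhere. Their products form a pair that aids strand exchange by recombinases. On the skin side PARP2, which marks broken DNA, was at 110 FPKM against a listed 0, and the base excision glycosylase TDG was at 82.1 against 7.32 FPKM.

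**Figure D5:**
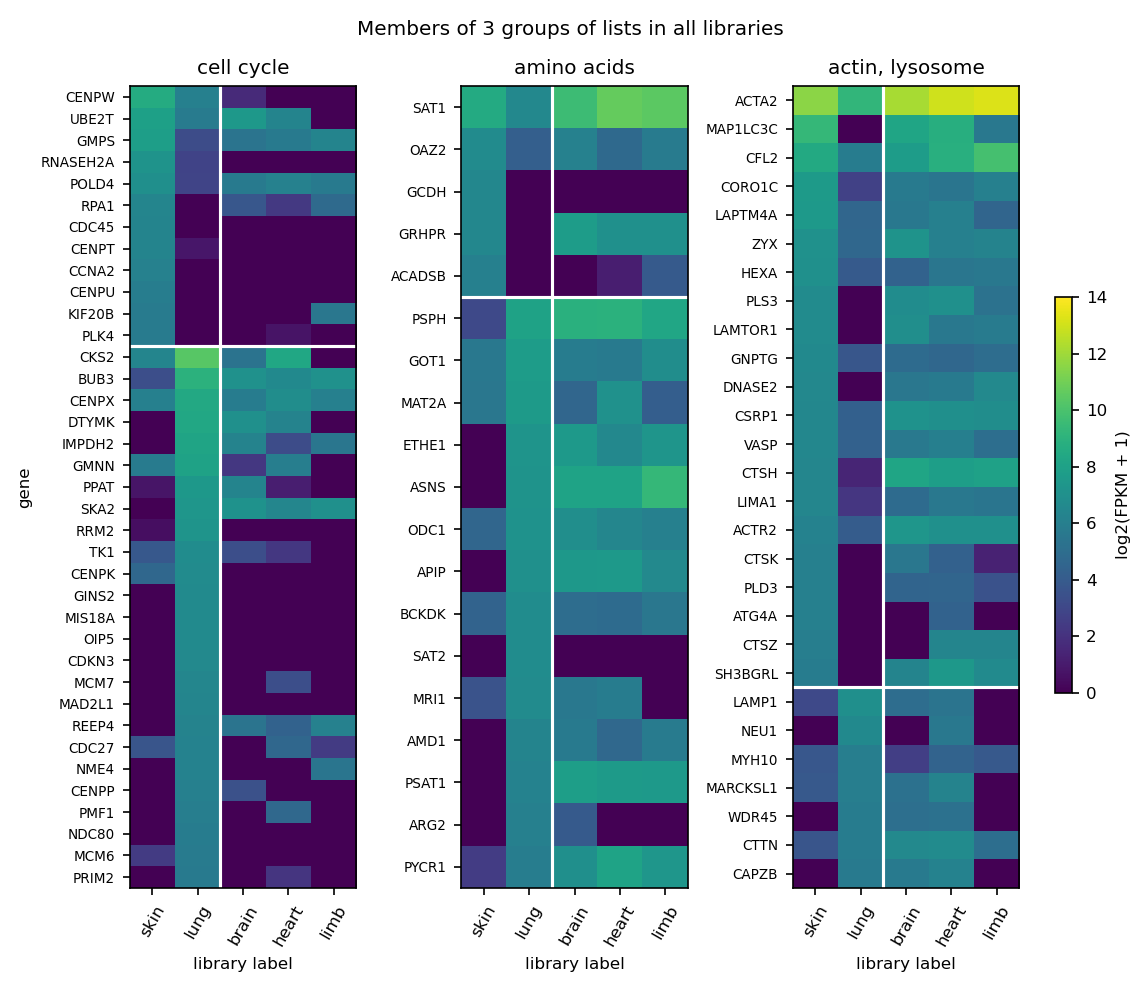
Colour gives log2(FPKM + 1) of each member (rows) in the skin-, lung-, brain-, heart- and limb-labelled libraries (columns) for the 3 cell cycle lists, the amino acid list and the actin and lysosome lists, without a few members that are not reported here. In each panel members above the white horizontal line are higher in the skin label and those below it in the lung label. Many cell cycle members are dark in the other 3 libraries, whereas several amino acid, actin and lysosome members are bright there.

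Amino acid and one-carbon metabolism had the largest lung-side share among lists of 12 or more genes that could pass, 14 of 33 (42.4%) against 5 for the skin side, with a median log2 difference of -0.92. For 8 of the 14, the brain-, heart- and limb-labelled libraries were all on the side of the lung label, against 28.5% of all lung-side members. PSPH, the last enzyme of serine synthesis, was at 7.38 FPKM under the skin label and 268 under the lung label, and at 480, 484 and 312 under brain, heart and limb. PSAT1, the enzyme before it, was listed at 0 under the skin label and stood at 74.2 FPKM under the lung label and 181 to 226 in the other 3. ASNS (asparagine synthetase) was listed at 0 and at 145 FPKM, with 279, 276 and 632 in the others, and PYCR1, of proline synthesis, was at 4.68 and 59.6 FPKM with 124 to 274 in the others. In all 4 of these genes the skin label was the lowest of the 5 and the lung label the next lowest.

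Polyamine genes were among the same list. ODC1, the rate-limiting enzyme of polyamine synthesis, was at 23.9 FPKM under the skin label and 137 under the lung label, and AMD1, which supplies the aminopropyl donor, was listed at 0 and at 79.1 FPKM. SAT1, which acetylates polyamines for export and breakdown, was higher under the skin label (378 and 93.2 FPKM), but the brain, heart and limb labels were higher still, at 765, 1659 and 1395. SAT2, a relative of SAT1, was at 109 FPKM under the lung label and listed at 0 in the 4 others. MAT2A, which makes the methyl donor S-adenosylmethionine, was at 45.7 and 200 FPKM, in favour of the lung label.

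In the list of translation factors and tRNA-charging enzymes, 6 of 70 genes were higher under the skin label and 7 under the lung label. Of the charging enzymes among them, 4 were on the lung side and 2 on the skin side. WARS1 (tryptophan) was at 0.49 FPKM under the skin label, 149 under the lung label and 730, 315 and 570 under brain, heart and limb. YARS1 (tyrosine) was at 21 and 124 FPKM, HARS1 (histidine) at a listed 0 and 118 FPKM, and LARS1 (leucine) at a listed 0 and 50.7 FPKM. KARS1 (lysine), at 85.4 and 14.9 FPKM, and the mitochondrial FARS2 (phenylalanine), at 96.7 FPKM and a listed 0, went the other way. The initiation factor EIF4B was at 55.0 FPKM under the lung label against a listed 0, and EIF4E2, a relative of the cap-binding protein, at 144 FPKM under the skin label against a listed 0.

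Genes of ribosome assembly and of rRNA and tRNA modification, counted as 1 list, were higher under the lung label in 23 of 65 cases (35.4%). Under the skin label 7 were higher, and the median log2 difference was -0.80. Among them were FCF1, a processing factor of the small subunit RNA, at 29.7 and 448 FPKM, and GNL3 (nucleostemin), at 58.5 and 349 FPKM. RSL24D1, a large-subunit assembly factor, was at 29.0 and 217 FPKM and IMP4, of the small-subunit processome, at 11.7 and 184 FPKM. TRMT112, an activator of several methyltransferases of RNA and protein, was at 77.6 and 390 FPKM, and N6AMT1, which works as its partner, was listed at 0 in every library but the lung-labelled one (162 FPKM). On the skin side NOB1, the nuclease of the last cut of small subunit RNA, was at 215 FPKM and LTV1, a small-subunit export factor, at 109 FPKM, both listed at 0 under the lung label.

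The ribosomal proteins themselves hardly entered the comparison. Of 84 cytosolic ribosomal protein genes, 0 were higher under the skin label and 1 under the lung label, RPS29 at 34.7 and 174 FPKM. These genes are abundant, with a median of 2125 FPKM in the higher library, and their median log2 difference was -0.42. Of 69 mitochondrial ribosomal protein genes, 13 were higher under the lung label and 3 under the skin label, with a median log2 difference of -0.50. MRPL24 was listed at 0 under the skin label, at 256 FPKM under the lung label and at 67.9 to 203 in the other 3, and MRPL43 was listed at 0 and at 153 FPKM. MRPS17 (290 and 71.1 FPKM), MRPL3 (197 FPKM and a listed 0) and MRPL4 (100.2 and 12.5 FPKM) were the skin-side members.

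In splicing and mRNA processing 17 of 116 genes were higher under the lung label and 5 under the skin label. SNRPA, a protein of the U1 particle that reads the start of introns, was at 18.8 and 255 FPKM, and U2AF1, which reads their end, was at 1.76 and 146 FPKM. SNRPN was at 5.31 FPKM under the skin label, 198 under the lung label and 134 to 288 in the other 3, so that the skin label alone was low. Skin-side members of the list were HNRNPK at 170 and 31.7 FPKM and HNRNPH2 at 118 and 20.3 FPKM, both RNA-binding proteins of the nucleus. PRPF38A, LSM10 and CSTF3 were the others. Matching was by symbol, and some splicing genes higher under the skin label lay outside the list. Genes outside it were not counted on either side, so the split describes the list only. The list's median log2 difference was -0.51.

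Of 123 respiratory chain and ATP synthase genes, 4 were higher under the skin label, 8 were higher under the lung label and 111 did not pass the rule. Apart from COX7A2 and COX7A1, the skin side held NDUFS1, a large subunit of complex I, at 102 and 11.1 FPKM, and LYRM2 at 103 FPKM and a listed 0. The lung side was made up of assembly factors and cofactor genes more than of subunits. SURF1 (60.1 and 513 FPKM), SCO2 (a listed 0 and 66.4 FPKM) and COA7 (a listed 0 and 59.1 FPKM) assist cytochrome c oxidase. SDHAF1 (1.40 and 74.8 FPKM), SDHAF3 (19.9 and 103 FPKM) and SDHAF4 (18.2 and 128 FPKM) assist succinate dehydrogenase, and COQ7 (37.8 and 203 FPKM) makes ubiquinone. For SURF1 the brain, heart and limb labels lay between 68.2 and 152 FPKM, near the skin label.

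Of 32 genes of metal handling, 5 were higher under the skin label, 6 were higher under the lung label and 21 did not pass the rule. ISCA2 (127 FPKM), HSCB (89.1 FPKM), NUBP2 (73.0 FPKM) and GLRX5 (181 FPKM), which act in iron-sulfur cluster assembly, were listed at 0 under the skin label. CIAPIN1, of the cytosolic pathway of the same process, went the other way, at 91.6 and 1.17 FPKM. The remaining skin-side genes were the zinc-binding metallothioneins MT3 (232 and 26.8 FPKM) and MT1A (69.3 and 6.67 FPKM), the transferrin receptor TFRC (61.6 FPKM, listed at 0 in all other 4) and the zinc transporter SLC30A6.

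Carbon metabolism was split 5 to 9 of 39. ENO3, the muscle form of enolase, was at 79.3 FPKM under the skin label and 421 under the lung label, with 6.58, 1.35 and a listed 0 in brain, heart and limb. Both libraries were above the other 3 for this gene. GALK1 (19.6 and 176 FPKM), an enzyme of galactose use, and CS (citrate synthase, 1.34 and 57.3 FPKM) favoured the lung label. The kinases that switch off pyruvate dehydrogenase were divided, with PDK4 (110 FPKM) and PDK2 (50.5 FPKM) listed at 0 outside the lung label and PDK3 at 62.5 and 9.92 FPKM in favour of the skin label. PFKP, a form of phosphofructokinase, was at 67.4 and 6.61 FPKM, also in favour of the skin label.

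Of 35 genes of lipid metabolism, 11 were higher under the lung label and 7 under the skin label. The sterol pathway enzymes FDPS (25.8 and 282 FPKM), IDI1 (44.8 and 185 FPKM) and ACAT2 (13.6 and 98.3 FPKM) favoured the lung label, and PMVK, of the same pathway, was at 64.2 FPKM under the skin label and listed at 0 in all other 4. PLIN2, a coat protein of lipid droplets, was at 36.7 and 180 FPKM, with 172 to 213 in the other 3, so the skin label alone was low. APOE, a lipid carrier of many cell types, was at 66.3 FPKM under the skin label and listed at 0 under the lung label. ALDH1A1, which makes retinoic acid, was at 317 FPKM under the skin label, 2.34 under the lung label, 268 under brain, a listed 0 under heart and 3075 under limb. Limb was the highest of the 5, and the lung and heart labels were at or near 0.

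Endoplasmic reticulum genes were split 15 to 11 of 86, with a median log2 difference of 0.66. HSPA5 (BiP), the chief chaperone there, was at 542 FPKM under the skin label, 84.3 under the lung label and 2032, 1488 and 847 under brain, heart and limb. The lung label was the lowest of the 5 and the skin label the next lowest. PDIA6, a disulfide isomerase, was at 499 and 121 FPKM, and RPN1, a subunit of the oligosaccharide transferase, at 148 and 24.3 FPKM. On the lung side DERL2, which helps to export misfolded proteins, was at 15.2 and 265 FPKM, SEC61A1, the translocation pore, at 2.42 and 73.3 FPKM, and HERPUD1, induced by folding stress, at a listed 0 and 58.5 FPKM. Membrane insertase subunits lay on both sides, with EMC2 (420 and 57.1 FPKM) and EMC9 (74.2 FPKM and a listed 0) favouring the skin label and EMC6 (116 and 540 FPKM) the lung label. The same held for the UFM1 conjugation system, with its enzyme UFC1 at 521 and 120 FPKM and its modifier UFM1 at 8.94 and 113 FPKM.

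Vesicle traffic was split 19 to 22 of 123, close to the background in both directions (15.4% and 17.9%). Skin-side genes included KDELR2, the receptor that returns chaperones to the endoplasmic reticulum, at 362 and 54.8 FPKM, and ERGIC2 at 285 and 38.9 FPKM. AP1S2, a small subunit of a clathrin adaptor, was at 216 FPKM and listed at 0 under the lung label, whereas AP1S1, its close relative, was listed at 0 under the skin label and at 117 FPKM under the lung label. The brain-, heart- and limb-labelled libraries held both, AP1S2 at 108 to 267 and AP1S1 at 73.1 to 87.3 FPKM. RAB34, at 20.3 and 308 FPKM, and CHMP5, of the membrane-cutting ESCRT machinery, at 24.2 and 268 FPKM, favoured the lung label, and CHMP1A, of the same machinery, favoured the skin label at 169 and 1.92 FPKM.

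Lysosome and autophagy genes had 12 of 43 (27.9%) higher under the skin label and 4 under the lung label, with a median log2 difference of 0.50. Luminal enzymes made up much of the skin side. CTSH, a cathepsin, was at 86.1 FPKM under the skin label, 1.72 under the lung label and 304, 226 and 255 under brain, heart and limb. HEXA, which breaks down gangliosides, was at 131 and 14.4 FPKM, and DNASE2, CTSK and CTSZ stood between 61.7 and 92.9 FPKM against a listed 0. CTSK, best known from bone-resorbing cells, was also at 46.7, 19.2 and 1.57 FPKM under brain, heart and limb. On the lung side were LAMP1, the main protein of the lysosomal membrane, at 7.38 and 125 FPKM, and the sialidase NEU1, at 99.3 FPKM against a listed 0.

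Of 58 actin cytoskeleton genes, 10 were higher under the skin label and 4 under the lung label. For 9 of the 10 the brain-, heart- and limb-labelled libraries all lay on the side of the skin label, as already given for ACTA2. The share over all skin-side members was 27.1%. CFL2, the muscle form of an actin-severing protein, was at 358 and 57.4 FPKM with 213, 457 and 926 in the others. For the focal adhesion proteins ZYX (133 and 24.2 FPKM), CSRP1 (89.8 and 18.4 FPKM) and VASP (89.7 and 19.2 FPKM) the lung label was also below every other library. The order of the rest differed between these genes. VASP, at 49.3, 64.5 and 32.45 FPKM under brain, heart and limb, was highest under the skin label and was the 1 gene outside the 9. CORO1C, a coronin, was at 197 and 5.56 FPKM with 41.7 to 66.9 in the others. The lung-side members were MYH10 (12.9 and 63.0 FPKM), a nonmuscle myosin, MARCKSL1, CTTN and CAPZB.

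Matrix proteins and matrix proteases had the highest skin-side shares among lists of 12 or more genes that could pass, on small numbers. Of 15 genes for collagens, basement membrane and matrix, 7 (46.7%) were higher under the skin label and 2 under the lung label, with a median log2 difference of 1.76. LOX was at 276 FPKM under the skin label, 67.7 under the lung label and 7.53, 85.7 and 120 under brain, heart and limb. SDC2, a heparan sulfate proteoglycan, was at 235 FPKM and listed at 0 in all other 4, and P4HA2, which hydroxylates collagen, was at 235 and 45.9 FPKM. TNC (tenascin C, 52.8 FPKM) and TGFBI (82.8 FPKM) were listed at 0 under the lung label. Of the 2 lung-side genes, SPP1 (osteopontin) was listed at 0 and at 93.1 FPKM, with 39.7, 886 and 1753 in brain, heart and limb, and MFAP1 (20.6 and 181 FPKM), caught by its name, is a splicing factor and no matrix gene.

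The list of matrix proteases and inhibitors was split 7 to 2 of 14. The 7 include both CSTB entries, which may share reads and stand for an inhibitor of lysosomal cathepsins, so its share may be overstated. Beyond the CSTB entries and PRSS23 it held PLAT, tissue plasminogen activator, at 365 and 65.8 FPKM, CST6, a secreted cystatin of epidermis, at 364 and 39.2 FPKM, and SERPING1, the inhibitor of complement C1, at 74.1 FPKM and a listed 0. TIMP2, an inhibitor of metalloproteinases, was listed at 0 under the skin label and at 92.9 FPKM under the lung label, with 77.7 to 315 in the others. SERPINB6, an intracellular protease inhibitor, was at 2.95 and 199 FPKM.

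Growth factor signalling was split 7 to 3 of 16, with a median log2 difference of 1.90. IGFBP5 (64.96 and 3.72 FPKM) accompanied IGFBP4 on the skin side, with the heparin-binding factor PTN at 121 and 9.93 FPKM, the angiogenic factor VEGFA at 57.3 FPKM and a listed 0, and WWTR1 (TAZ), a coactivator of the Hippo pathway, at 58.5 and 2.29 FPKM. On the lung side were FSTL3, which binds activin, at a listed 0 and 54.9 FPKM with 69.7 to 362 in the others, and TGFB1I1. SPRYD7 was caught by its name and is not known as a growth factor gene. Adhesion genes were split 5 to 2 of 21, with the tetraspanin CD9 at 417 and 84.4 FPKM and CD46, a complement regulator, at 179 and 1.73 FPKM in favour of the skin label, and TSPAN3 at a listed 0 and 225 FPKM in favour of the lung label.

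Of 16 interferon-induced and innate immune genes, 6 were higher under the lung label and 4 under the skin label, with a median log2 difference of -1.16. For 5 of the 6 the other 3 libraries were all on the side of the lung label, against 28.5% of all lung-side members. OAS1Y, which makes the messenger that activates RNase L, was at 75.9 and 506 FPKM, with 742, 229 and 436 under brain, heart and limb. MX1, a GTPase that restricts viruses, was at 29.1 and 175 FPKM, with 487, 101 and 74.7, and USP18, which removes ISG15, was at 18.2 and 172 FPKM, with 365, 149 and 519. The skin label was the lowest of the 5 for each of these 3 genes. The 2 chains of the interferon gamma receptor went in opposite directions, IFNGR1 at 63.3 FPKM and a listed 0 in favour of the skin label and IFNGR2 at a listed 0 and 90.1 FPKM in favour of the lung label. IRF1, a transcription factor of the interferon response, was at 70.1 and 15.3 FPKM and listed at 0 in the other 3. The interferon-induced gene IFI35 also favoured the skin label, at 51.3 FPKM and a listed 0, with 34.1, 20.5 and 26.5 under brain, heart and limb.

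Cytokine genes past the rule were few, 2 on each side of 8. Besides CXCL5 the skin side held IL1A, an alarm cytokine of epithelia, at 55.7 FPKM and listed at 0 in all other 4. Besides TNFRSF6B the lung side held CCL17, which attracts T cells, listed at 0 under the skin label and at 293 FPKM under the lung label, with 162, 265 and a listed 0 under brain, heart and limb. The leukocyte markers listed at 0 in both libraries have been given above.

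The list named for transcription factors with zinc fingers or homeodomains also holds factors of other families. In it 13 of 45 genes (28.9%) were higher under the skin label and 16 (35.6%) under the lung label. The median of this list in the higher library was 84.2 FPKM. PRRX1, a homeobox factor of mesenchyme, was at 282 and 22.9 FPKM, with a listed 0, 199 and 22.8 under brain, heart and limb. SNAI2, which represses epithelial genes, was at 84.2 FPKM under the skin label and listed at 0 under the lung label, with 16.0 to 78.9 in the others. The lung side held ID2 (74.3 and 437 FPKM) and ID1 (25.9 and 108 FPKM), helix-loop-helix proteins that inhibit others of that family and known targets of BMP signals, MEIS1 (14.8 and 109 FPKM), and NFIA (11.98 and 85.4 FPKM) and NFIX (a listed 0 and 55.3 FPKM), factors of the nuclear factor I family. The ID and NFI proteins are neither zinc finger nor homeodomain factors. For ID2 the heart label, at 387 FPKM, lay near the lung label, and the brain and limb labels near the skin label. Genes induced early after a stimulus were split 2 and 2 of 6, with IER3 (254 and 14.6 FPKM) and BTG2 on the skin side and JUNB (12.1 and 83.7 FPKM) and DUSP6 (10.8 and 78.8 FPKM) on the lung side.

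The general transcription machinery was split 10 to 8 of 51, and 33 genes did not pass the rule. Mediator links activators to RNA polymerase II, and its subunits past the rule lay on both sides. On the skin side MED6 (175 FPKM), MED30 (112 FPKM) and CCNC (59.5 FPKM) were listed at 0 under the lung label, and MED4 (172 and 6.35 FPKM) and MED17 (52.1 and 10.98 FPKM) were above 0 in both. MED18 was on the lung side, at a listed 0 and 83.3 FPKM. The polymerase subunits POLR2C (87.9 FPKM), POLR2H (58.9 FPKM) and POLR1H (82.5 FPKM) were higher under the lung label and listed at 0 under the skin label. The other 3 libraries held these 3 genes, POLR1H at 141 to 420 FPKM, so that the skin label alone was at 0.

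Histone and chromatin genes were split 5 and 5 of 38. Both of the class I deacetylases past the rule, HDAC3 (273 and 33.5 FPKM) and HDAC2 (106 and 10.9 FPKM), were on the skin side, and the histone chaperones NASP (14.3 and 165 FPKM) and ASF1B (a listed 0 and 50.7 FPKM) were on the lung side. Proteasome and ubiquitin genes were split 18 to 12 of 124, with the core proteasome subunit PSMA6 at 1068 and 233 FPKM and the proteasome-bound USP14 at 264 and 31.1 FPKM on the skin side. That list also holds PSMC3IP by its name only. Among 52 heat shock and chaperone genes, 4 were higher under the skin label and 8 under the lung label. Besides CRYAB and HSPA5, the skin side held the heat shock factor HSF2 (80.0 FPKM against a listed 0), whereas the factor HSF1 (a listed 0 and 53.5 FPKM) and the mitochondrial chaperone HSPA9 (7.97 and 145 FPKM) were on the lung side.

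Kinases, phosphatases and their regulators were split 8 to 5 of 48. Besides PPP1R14A the skin side held SGK1, a kinase induced by steroids and osmotic stress, at 174 FPKM and a listed 0, with 70.5, 380 and a listed 0 under brain, heart and limb. ARAF, a kinase of the RAS pathway, was at 158 and 4.53 FPKM, with 157 to 238 in the others, so the lung label alone was low. CSNK1A1, the casein kinase that primes beta-catenin for destruction, was at 13.2 and 204 FPKM in favour of the lung label. STK4, a kinase of the Hippo pathway, and MAP2K2, of the RAS pathway, were listed at 0 under the skin label and stood at 90.8 and 84.0 FPKM under the lung label. Members of the RAS pathway were thus found on both sides.

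G protein signalling was split 5 to 4 of 19. F2R, the thrombin receptor, was at 159 and 27.8 FPKM and the inhibitory alpha subunit GNAI3 at 146 and 20.3 FPKM in favour of the skin label, whereas the beta subunits GNB2 (91.4 FPKM) and GNB5 (50.4 FPKM) were listed at 0 there. Ion channels, pumps and carriers were split 6 to 7 of 25. The skin side held FXYD6, a regulator of the sodium pump, at 95.4 and 21.5 FPKM, and ANO4 at 73.7 FPKM and a listed 0. CNIH1, a cargo receptor of early secretion that the list caught by its family, was at 13.1 and 246 FPKM, and the skin label was the lowest of the 5 for it.

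Of 52 tubulin, motor and cilium genes, 8 were higher under the skin label and 4 under the lung label, although MAP1LC3C and MAP2K2 were caught by their names. DYNC1I2 (144 and 3.19 FPKM) and DYNC1LI1 (133 and 23.8 FPKM), chains of the dynein motor that moves cargo towards the cell centre, were on the skin side. DCTN5, of the dynactin complex that dynein works with, was on the lung side, at 21.9 and 110 FPKM. HAUS1 (105 FPKM) and NUDC (105 FPKM), needed for spindles, were at 0 and 2 FPKM under the skin label.

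Redox genes were split 4 and 4 of 44. MSRA, which repairs oxidised methionine, was at 243 FPKM and a listed 0 in favour of the skin label, and BLVRA, which makes bilirubin, at 163 and 32.6 FPKM. GCLM, of the enzyme that limits glutathione synthesis, was listed at 0 and at 157 FPKM, and TXNDC12, a thioredoxin of the endoplasmic reticulum, was listed at 0 and at 82.4 FPKM, in favour of the lung label. KEAP1, the sensor that holds back the oxidant response, was on the skin side, at 62.0 and 12.4 FPKM. Mitochondrial import and carrier genes were split 7 to 4 of 64. SLC25A30 was at 107 and 4.79 FPKM and listed at 0 in the other 3, and SLC25A11, the oxoglutarate carrier, was at 21.8 and 190 FPKM.

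Genes of the nuclear envelope and nuclear import were split 2 to 4 of 15. KPNA2, an import receptor, was at 140 and 16.1 FPKM, with 87.0 to 300.01 in the others, which left the lung label as the lowest. TOR1A, an ATPase of the envelope, was at 1.45 and 85.3 FPKM, and its activator TOR1AIP1 was at a listed 0 and 60.8 FPKM, both in favour of the lung label. LBR, which binds lamin and heterochromatin, was listed at 0 and at 80.6 FPKM. Apoptosis genes were split 2 to 3 of 18, with BAD (142 and 20.99 FPKM) and CASP8 (70.1 FPKM and a listed 0) on the skin side and DIABLO (a listed 0 and 136 FPKM) on the lung side, all of them promoters of cell death.

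Small RNAs and unnamed genes made up a minor part. Of the skin-side members 43 had no name and 4 were small RNAs, and of the lung-side members 26 and 12. The highest value on the lung side belonged to a Y_RNA, at 2482 FPKM and listed at 0 in the other 4 libraries. Near-identical copies can share reads, so these values are uncertain, and 10 members, all of them small RNAs or unnamed, had the same values as another member in all 5 libraries.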

How the data were processed

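One library for each of 5 labels was analysed, with 0 replicates. Per the submitters' processing notes, bcl2fastq, STAR (alignment) and RSEM (expression estimates) were used with the ARS-UCD1.2 build, the sources used here giving neither versions nor annotation. In the 1 table of 27607 Ensembl genes that the authors deposited, values were taken as FPKM by elimination. No unit is named in its header or in the labels, most values are not whole, and the libraries sum to different totals above those of TPM. Values were used as deposited. Adding 1 to both values understates the difference of low genes.

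The labels gave the groups. Members, gene lists and rules were chosen with earlier results of these data known. Genes were named by these rules: in each direction the 15 members of highest level, the 10 of largest ratio with at least 5 FPKM in the lower library, up to 4 per direction and list, all members of the 3 cell cycle lists, the 3 on each side of the ratio, the markers above 0, the 10 highest listed at 0 in the other 4 libraries, and the 10 with the lower library alone low. ACAT2, AMD1, AP1S1, ASF1B, ASNS, CCNC, CHMP1A, COA7, CS, CSRP1, CST6, CSTF3, CTSH, CTSK, CTSZ, DNASE2, EIF4B, EMC9, HERPUD1, HSCB, HSF1, IFNGR2, IGFBP5, IMP4, KARS1, LARS1, MED17, MED30, MRPL43, NFIA, NFIX, NUBP2, ODC1, PDK2, PMVK, POLR2H, PSAT1, PYCR1, RPN1, RPS29, SCO2, SDHAF1, SDHAF3, SEC61A1, SNAI2, TFRC, TNC, U2AF1, UFM1, VASP, VEGFA and WWTR1 lie outside these rules and were chosen after their values were seen. A few members that the rules name are not reported here. Lists were matched by symbol or symbol pattern, 20 members fell in more than 1 list, and 12 lists held cell type markers. Python 3.11.15, pandas 2.3.3, numpy 2.4.6 and matplotlib 3.10.9 were used, and the counting was tested on simulated data. Alternatives changed the minimum, the value added, the ratio, the scaling and the genes counted. No sequences or coordinates are given, since no genome or sequence of that build was used here, and gene names are those of the deposited table.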

Additional observations from a re-analysis of the deposited data

How the results depend on the processing

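The counts of members moved most with the minimum level. Skin-side and lung-side members numbered 1169 and 1656 at a minimum of 10 FPKM, 931 and 1211 at 20, 207 and 215 at 100, 83 and 64 at 200, and 1474 and 2181 with no minimum. With only genes above 0 in both libraries counted, 251 and 220 remained. The lung side was the larger in all of these but the last and the minimum of 200 FPKM, where the skin side was. Under an added value of 0.1 or 10, a ratio of 3 or 8, both rescalings of the lung label and named genes alone, the skin side held 388 to 632 members and the lung side 429 to 637. The ratios of 327 named genes were recomputed with 0.1 and 10 added and with rescaling by the median ratio. With 0.1 and 10 added, 138 and 206 moved by over 1.5 times, and 0 did so after that rescaling. Under these 3 settings 0 changed direction, but that outcome was fixed in advance. Adding the same value to both libraries keeps their order, and the rescaling factor was only 1.0023. Nothing about the steadiness of the directions is read from it. No paired analysis was possible because there was 1 library per label. Depth is unknown, so how much of the listed zeros it sets was not tested.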
